A study of Mus musculus with 4 samples.

Results

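The genes described are the potassium channel genes, taken as every gene whose symbol starts with Kcn in the deposited count tables. There were 85 of them among 20136 listed genes. All 85 were found in the GENCODE vM21 annotation of GRCm38, 72 were listed in all 4 tables, 5 in 3 tables, 6 in 2 tables and 2 in 1 table. The samples were 4 Drop-seq libraries of the bed nucleus of stria terminalis (BNST), part of the extended amygdala, from male wildtype C57BL/6J mice, each made from a pool of 6 mice. Drop-seq captures single cells on barcoded beads in droplets and counts each captured RNA molecule by a unique molecular identifier (UMI). The mice formed 1 group with no treatment or genotype contrast, so cell classes were compared within the same libraries. The spread given below is that between 4 pools and not between single animals.

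Potassium channels let potassium ions leave or enter a cell along their gradient and so set the resting potential, end action potentials and pace firing. Voltage-gated (Kv) channels open on depolarisation, inward rectifiers (Kir) and two-pore (K2P) channels carry current near rest, and other groups open on intracellular calcium or sodium. In the brain, neurons use many of these families side by side, while astrocytes and oligodendrocytes are known for Kir4.1 currents that take up potassium released by active axons.

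Cells were assigned to classes by marker UMIs, and no marker was a Kcn gene. Of 4181 kept cells, 2510 were gated as neurons, 405 as astrocytes, 913 as mature oligodendrocytes and 102 as oligodendrocyte precursor cells, with no barcode shared between libraries among the kept cells. Precursor cells numbered 17 to 34 per library and gave the least precise sums. Median depth per cell was 3213.5 UMIs in neurons, 812 in astrocytes, 1383 in oligodendrocytes and 959.5 in precursors. A list of 12 neuron genes that no gate used had a summed level in astrocytes of 2.47% of that in neurons, in oligodendrocytes 2.93% and in precursors 10.4%. The 8 held-out astrocyte genes reached 15.4% of their astrocyte level in precursors, 4.28% in neurons and 1.74% in oligodendrocytes. The 6 held-out oligodendrocyte genes stayed at 0.290% of their own-class level in neurons, 0.619% in astrocytes and 1.12% in precursors.

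The deposited tables held 1800 to 3600 barcodes and 2640399 to 5652342 UMIs per library. Kcn genes gave 25513 UMIs in the kept cells, of which 21861 (85.7%) were in gated neurons. Neurons also held most UMIs of all genes, with 9699856 against 1541602 in oligodendrocytes, 372729 in astrocytes and 116547 in precursors. The median was 100 UMIs per Kcn gene. Counts reached 500 UMIs or more in 18 genes and 100 or more in 43, while 16 genes had fewer than 10. Levels are given as CPM, a gene's UMIs over all UMIs of the class in that library on the usual CPM scale, and are compared for 1 gene between classes, not between genes. Summed over all Kcn genes, the mean level (± SD of 4 libraries) was 2317 ± 267 CPM in neurons and 3117 ± 339 in precursors. It was 1570 ± 194 CPM in astrocytes and 1496 ± 258 in oligodendrocytes. Of the 85 genes, 40 had no UMI in oligodendrocytes, 49 none in astrocytes, 49 none in precursors and 3 none in neurons. Such zeros also depend on the UMIs held by each class, fewest in precursors, and the share over all genes was not counted. The low-count filter left 23 genes for the tests between broad classes, and a gene high in 1 class could pass it through that class.

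The promoters of 4 genes whose levels separated the classes are shown because the results below turn on them. They are the 250 bases upstream of the RefSeq start on GRCm38.p6, written 5′ to 3′ on the gene's strand, with each CG dinucleotide in capitals. Kcna1 had no entry in the promoter table.
Kcnj10, chr1:172340960-172341209, plus strand: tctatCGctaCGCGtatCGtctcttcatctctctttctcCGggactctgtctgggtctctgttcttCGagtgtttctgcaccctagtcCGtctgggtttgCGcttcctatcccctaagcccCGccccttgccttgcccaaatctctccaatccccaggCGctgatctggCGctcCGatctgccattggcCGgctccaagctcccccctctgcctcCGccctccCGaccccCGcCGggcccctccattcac
Kcna6, chr6:126740675-126740924, minus strand: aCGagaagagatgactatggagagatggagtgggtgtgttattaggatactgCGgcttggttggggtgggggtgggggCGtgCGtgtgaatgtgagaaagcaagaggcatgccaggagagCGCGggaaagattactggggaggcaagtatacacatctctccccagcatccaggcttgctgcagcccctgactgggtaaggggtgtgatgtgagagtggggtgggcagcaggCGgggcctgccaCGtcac
Kcnk13, chr12:99964249-99964498, plus strand: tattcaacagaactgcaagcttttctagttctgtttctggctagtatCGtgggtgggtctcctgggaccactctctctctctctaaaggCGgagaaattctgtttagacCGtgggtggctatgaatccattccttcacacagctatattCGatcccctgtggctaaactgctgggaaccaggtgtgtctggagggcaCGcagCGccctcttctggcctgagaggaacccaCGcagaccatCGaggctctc
Kcnc1, chr7:46396218-46396467, plus strand: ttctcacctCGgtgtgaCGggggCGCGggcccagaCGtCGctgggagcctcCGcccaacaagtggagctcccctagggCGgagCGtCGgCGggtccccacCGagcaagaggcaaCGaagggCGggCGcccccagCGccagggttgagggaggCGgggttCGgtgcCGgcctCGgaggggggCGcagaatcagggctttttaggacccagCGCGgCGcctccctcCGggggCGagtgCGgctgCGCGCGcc
CG, which reads the same on both strands, occurred 17 times before Kcnj10, 8 times before Kcna6, 8 times before Kcnk13 and 30 times before Kcnc1. The median over 32851 promoters of this length was 6, with quartiles of 2 and 16, and 92.1% held at least 1. The 87 promoters matched to 62 Kcn genes had a median of 8, with quartiles of 4 and 16.5. The Kcnc1 promoter had more CG than 94.1% of all promoters and the Kcnj10 promoter more than 76.5%, while Kcna6 and Kcnk13 each had more than 57.0%. These counts describe the sequence only and were not set against expression.

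Families differed in which class held them. The 7 Kv1 genes summed to 627 to 1044 CPM in the 4 oligodendrocyte libraries, with a mean of 809, against 175 ± 31.7 (SD, n = 4 here and below) in neurons, 161 ± 103 in precursors and 28.9 ± 11.4 in astrocytes. Inward rectifiers (13 genes) ran the other way from most Kv families, with 149 ± 17.2 CPM in neurons, 542 ± 134 in astrocytes, 407 ± 27.3 in oligodendrocytes and 710 ± 72.0 in precursors. The 4 Kv3 genes summed to 299.5 ± 20.6 CPM in neurons and 6.77 ± 5.25 in oligodendrocytes. The 8 silent Kv genes, whose products act only as partners of other Kv subunits, summed to 107 ± 19.9 CPM in neurons against 4.31 ± 8.61 in astrocytes and 0.479 ± 0.958 in oligodendrocytes, with no UMI in precursors. The 11 two-pore genes summed to 174 ± 13.1 CPM in neurons, 363 ± 48.6 in astrocytes, 105 ± 16.5 in oligodendrocytes and 520.1 ± 26.1 in precursors. Sums follow their most abundant members, which are described next.

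**Figure D1:**
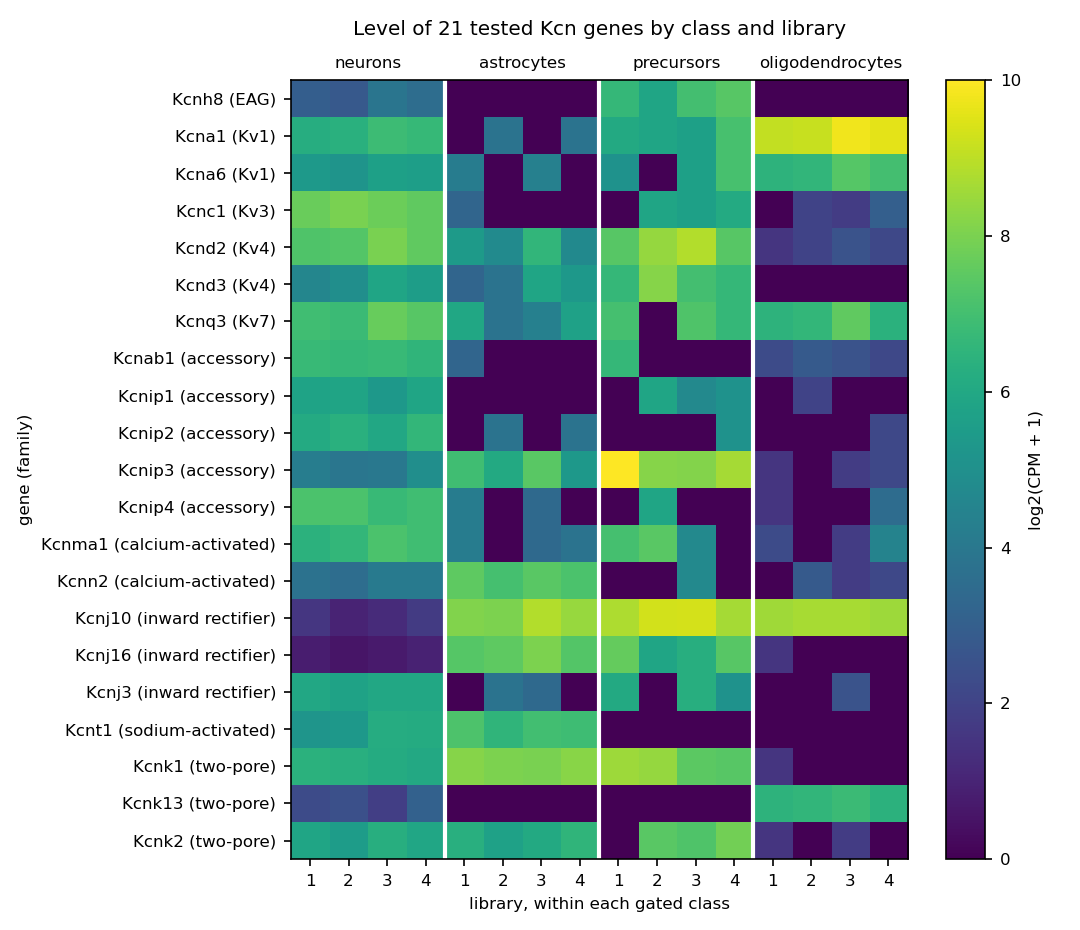
Level of 21 of the 23 tested Kcn genes, as log2(CPM + 1), in the 4 libraries of each gated class. Colour runs from 0 (dark) to 10 (bright); Kcna1 is brightest in oligodendrocytes, Kcnj10 is bright in the 3 glial classes and dark in neurons, and Kcnc1 and Kcnip4 are bright mainly in neurons.

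The comparison between broad classes asked which channel genes separate neurons from glia. Against oligodendrocytes, 21 of the 23 tested Kcn genes passed an adjusted p of 0.05 in edgeR's quasi-likelihood test over all genes, 17 higher and 4 lower in neurons; of all 6361 genes tested 73.2% passed, 39.6% higher and 33.7% lower. Against astrocytes 20 passed, 14 higher and 6 lower in neurons, where 63.7% of all genes passed (35.0% higher, 28.6% lower). Against precursors 12 passed, 6 in each direction (41.5% of all genes, 25.1% higher and 16.4% lower), and between astrocytes and oligodendrocytes 14 passed, 9 higher and 5 lower in astrocytes (47.4%, with 23.1% higher and 24.3% lower). Between precursors and oligodendrocytes 16 passed, 13 higher and 3 lower in precursors (38.4%, with 17.7% higher and 20.7% lower). The median log2 fold change of the tested Kcn genes in neurons over oligodendrocytes was 4.95, or 4.17 with 3 genes that lacked UMIs in 1 class set at their bound, beside 0.11 over all genes. Over astrocytes it was 1.84, or 1.72 with 3 genes at their bound, beside 0.20, and over precursors 0.61, or 0.57 with 2 at their bound, beside 0.30.

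Fold changes from edgeR carry its TMM scaling, which ran from 0.737 to 0.781 in oligodendrocytes and from 1.22 to 1.58 in precursors, and so can differ from ratios of CPM. Scaling with DESeq2 moved the median of all genes from 0.30 to 0.14 for neurons over precursors, from -0.01 to 0.12 for astrocytes over oligodendrocytes and from -0.14 to 0.06 for precursors over oligodendrocytes. Where a class held 1 to 3 UMIs of a gene, the ratio of pooled CPM is given with its exact 95% counting interval in place of the fitted value. Where a class held none, a lower bound is given from 3 counts over the class. Intervals and bounds cover counting error only.

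Among inward rectifiers, Kcnj10 encodes Kir4.1, the main glial rectifier. In neurons it stood at 1.97, 0.992, 1.33 and 2.37 CPM in libraries 1 to 4, in astrocytes at 276, 263, 461 and 354, in oligodendrocytes at 385, 411, 418 and 365, and in precursors at 433, 634, 659 and 404. Every glial library lay above every neuronal one, with no overlap. In neurons Kcnj10 was lower by a log2 fold change of -8.09 (SE 0.21) against oligodendrocytes, -7.62 (SE 0.30; edgeR adjusted p = 2.68e-136) against astrocytes and -7.74 (SE 0.40; adjusted p = 1.14e-81) against precursors. A Kcnj10 UMI was found in 41.7% ± 5.71 of oligodendrocytes, 37.0% ± 7.92 of precursors and 24.3% ± 4.62 of astrocytes, and in 0.529% ± 0.22 of the more deeply sequenced neurons. With each cell thinned to 1000 UMIs these shares were 30.5%, 45.1%, 18.3% and 0.193% of 693, 47, 116 and 2164 cells that deep.

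Between glial classes the Kcnj10 differences were small. Astrocytes lay lower than oligodendrocytes by a log2 fold change of -0.47 (SE 0.17; edgeR adjusted p = 0.0146), a call that DESeq2 scaling (adjusted p = 0.1411), a 5% mitochondrial limit (0.1436), no library block (0.0885) and leaving out library 1 (0.1065) or 2 (0.1312) each ended. Precursors had the higher CPM (532 ± 132 against 395 ± 24.1) but a fitted log2 fold change of -0.35 (SE 0.22; adjusted p = 0.2127) against oligodendrocytes, so that the direction depended on the scaling and no difference was called.

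Kcnj16 encodes Kir5.1, a subunit that assembles with Kir4.1 and has little current of its own. It stood at 164, 184, 259 and 157 CPM in astrocytes and at 199.8, 57.6, 76.0 and 168 CPM in precursors, whereas 913 oligodendrocytes held 1 UMI and 2510 neurons held 7. Astrocyte and precursor levels overlapped, and both lay apart from oligodendrocytes and neurons in all 4 libraries. The pooled level in astrocytes was 298 times that in oligodendrocytes (interval 51.8 to 11923), and in precursors 198 times (30.5 to 8353). Astrocytes and precursors thus held UMIs of both genes, and oligodendrocytes almost only those of Kcnj10. The 8 held-out astrocyte genes reached 15.4% of their astrocyte level in precursors, and their part in the precursor level of Kcnj16 was not tested. Kcnj16 differed by a log2 fold change of -7.92 (SE 0.44; edgeR adjusted p = 1.14e-69) between neurons and astrocytes.

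G-protein-gated rectifier genes were mostly neuronal. Kcnj3 (GIRK1), a subunit opened by inhibitory receptors, stood at 62.3, 53.6, 63.6 and 62.5 CPM in neurons, and was 46.8 times the pooled oligodendrocyte level (interval 12.9 to 387, from 2 UMIs) and 11.3 times the astrocyte level (3.12 to 93.7, from 2 UMIs). Precursors held 6 Kcnj3 UMIs, at 66.6, 0, 76.0 and 33.7 CPM, which overlapped neurons with no called difference (0.57, SE 0.61; edgeR adjusted p = 0.4751) and were 39.7 times the oligodendrocyte level (7.10 to 402). Its partners Kcnj6 (GIRK2; 79 neuronal UMIs of 81 kept) and Kcnj9 (GIRK3; 463 of 464) did not pass the low-count filter of the tests between broad classes. They stood at 9.01 ± 3.02 and 46.4 ± 6.56 CPM in neurons. Kcnj9 lies on the minus strand of chromosome 1 (172320501 to 172329318), 11892 bases from Kcnj10 (172341210 to 172374085), so these neighbours had opposite class patterns. Kcnj4 (Kir2.3) had all of its 91 UMIs in neurons (10.6 CPM ± 7.44). Kcnj8, the pore of a vascular ATP-sensitive channel, had 9 of its 12 UMIs in the 68 gated vascular cells.

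Kv1 genes encode low-threshold axonal potassium channels, and 2 of the 7, Kcna1 and Kcna6, were highest in oligodendrocytes. Kcna1 (Kv1.1; chromosome 6, 126640397 to 126646384) reached 540.5, 565, 882 and 766 CPM in oligodendrocytes, against 74.3, 80.4, 114 and 102 in neurons and 66.6, 57.6, 50.7 and 135 in precursors. Astrocytes held 2 UMIs. Each oligodendrocyte library lay above all libraries of the other classes. The log2 fold change of neurons against oligodendrocytes was -3.33 (SE 0.12; edgeR adjusted p = 4.39e-177) and that of precursors -3.93 (SE 0.33; adjusted p = 4.60e-31). Neurons and precursors did not differ beyond error (0.61, SE 0.49; adjusted p = 0.3270). A Kcna1 UMI was present in 57.2% ± 7.24 of oligodendrocytes, 23.6% ± 3.06 of neurons and 0.552% ± 0.64 of astrocytes, or 47.4%, 9.11% and 1.22% at 1000 UMIs per cell.

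The adjacent gene Kcna6 (Kv1.6; 126708329 to 126740674), which lies 61945 bases from Kcna1 and has an opposite-strand gene overlapping it, was also highest in oligodendrocytes, by a smaller margin. It stood at 86.2, 93.7, 162 and 128 CPM in oligodendrocytes and at 41.1, 34.7, 50.4 and 48.3 CPM in neurons, with no overlap. The log2 fold change of neurons was -1.83 (SE 0.18; edgeR adjusted p = 3.82e-23). Precursors lay below oligodendrocytes (-1.74, SE 0.51; adjusted p = 0.0023), which did not pass under the 5% mitochondrial limit (0.1555), thinned (0.1367) or without library 3 (0.0571). Kcna2 (Kv1.2), the usual axonal partner of Kv1.1, was sparse, with 35 UMIs in neurons, 5 in astrocytes, 1 in oligodendrocytes and 1 in precursors, and was not tested. A Kcna2 UMI was found in 1.21% ± 0.454 of the more deeply sequenced neurons and 1.26% ± 1.02 of astrocytes. At 1000 UMIs per cell the shares were 0.294% ± 0.169 and 1.64% ± 2.01. Kcna5 had 94 UMIs in neurons and 0 in each glial class. Kcna4 (Kv1.4) had 215 UMIs in neurons, 1 in oligodendrocytes and 3 in precursors. Precursors held only 116547 UMIs of all genes, so these counts did not set Kcna4 in neurons apart from precursors. Kcna3 (16 UMIs in neurons against 1 in oligodendrocytes) had too few to place, as neurons held 9699856 UMIs of all genes and oligodendrocytes 1541602.

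**Figure D2:**
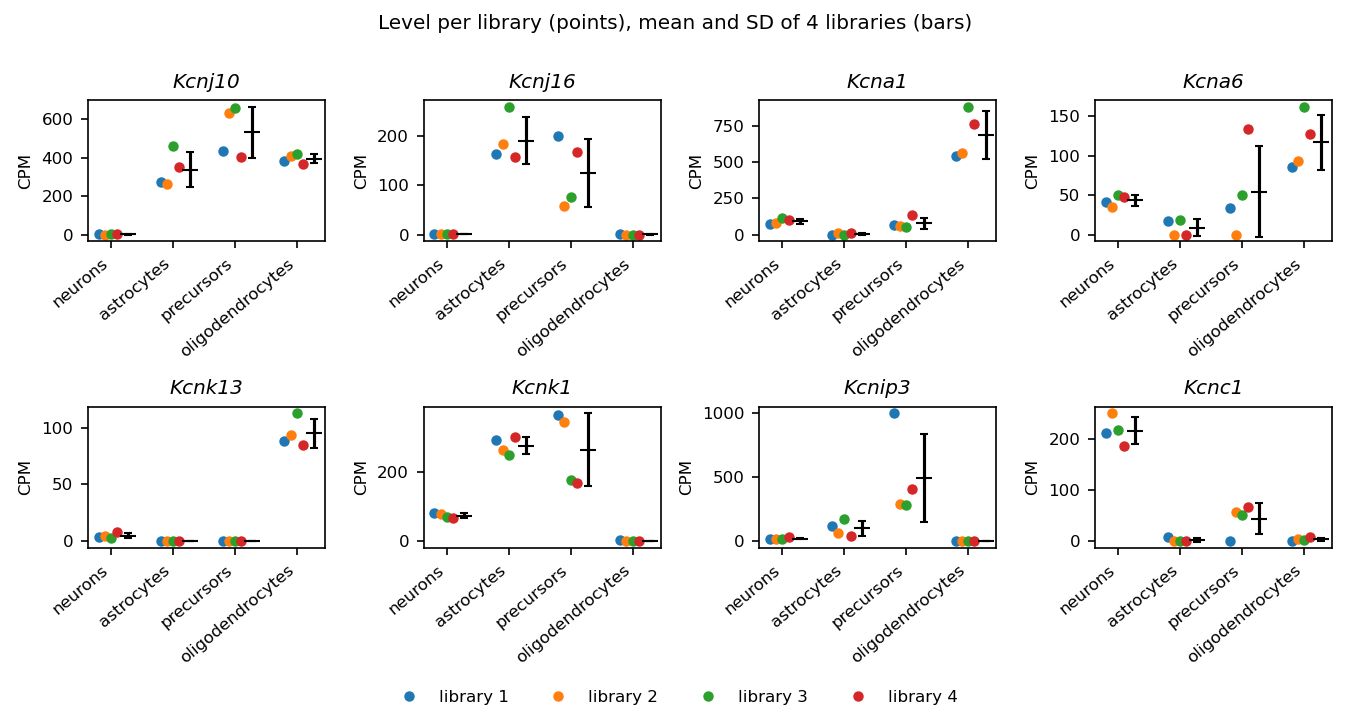
Level in CPM of 8 Kcn genes in each gated class; each point is 1 library, and the bar beside it gives the mean and SD of 4 libraries. Kcna1, Kcna6 and Kcnk13 are highest in oligodendrocytes, Kcnj16 and Kcnk1 in astrocytes and precursors, Kcnip3 in precursors and Kcnc1 in neurons.

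Two-pore channels carry the leak currents that hold the resting potential, and their genes split between glial classes. Kcnk13 (THIK-1) stood at 88.2, 93.7, 113 and 85.1 CPM in oligodendrocytes and at 3.94, 4.47, 2.65 and 7.57 CPM in neurons, a log2 fold change of -4.73 (SE 0.28; edgeR adjusted p = 6.19e-61) with no overlap. Astrocytes and precursors held no Kcnk13 UMI, which allows up to 8.05 CPM and 25.7 CPM, so oligodendrocytes were at least 11.8-fold and at least 3.70-fold higher. A Kcnk13 UMI was seen in 14.6% ± 4.12 of oligodendrocytes, 1.69% ± 0.517 of neurons and 0 of 405 astrocytes, or in 9.86% and 0.545% of the oligodendrocytes and neurons at 1000 UMIs per cell.

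Kcnk1 (TWIK-1) had the reverse glial pattern. It reached 293, 263, 249.7 and 301 CPM in astrocytes and 366, 346, 177 and 168 in precursors, against 82.0, 77.9, 70.3 and 65.3 in neurons and 1 UMI in all oligodendrocytes. Both glial groups lay above neurons in every library. The log2 fold change of neurons was -2.09 (SE 0.21; edgeR adjusted p = 1.01e-21) against astrocytes and -1.45 (SE 0.35; adjusted p = 1.73e-04) against precursors. The latter did not pass at 800 genes per cell (adjusted p = 0.0701), without the low-count filter (0.0662) or thinned (0.4417). Astrocytes were 426 times the pooled oligodendrocyte level (interval 74.8 to 16988). Kcnk2 (TREK-1), a mechanically gated leak channel, stood at 59.5 ± 12.5 CPM in neurons and 72.2 ± 16.5 in astrocytes, which overlapped (-0.47, SE 0.34; adjusted p = 0.2187). Precursors had 0, 173, 152 and 236 CPM of Kcnk2, not called against neurons (-0.85, SE 0.44; adjusted p = 0.1099) and 106 times the pooled oligodendrocyte level (interval 24.9 to 949, from 2 UMIs).

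Among Kv3 and Kv4 genes, Kcnc1 was highest in neurons, while Kcnd2 and Kcnd3 were also found in precursors and astrocytes. Kcnc4 had 261 UMIs in neurons, 8 in astrocytes and 0 in precursors, and was not tested between broad classes. Kcnc1 (Kv3.1), which allows fast repetitive firing, stood at 212, 251, 217 and 187 CPM in neurons against a mean of 3.14 CPM in oligodendrocytes, a log2 fold change of 5.87 (SE 0.35; edgeR adjusted p = 1.03e-62). The neuronal level was 80.3 times the pooled astrocyte level (interval 14.4 to 3175, from 1 UMI). Precursors had 0, 57.6, 50.7 and 67.4 CPM of Kcnc1 from 5 UMIs, and neurons were higher by a log2 fold change of 2.62 (SE 0.50; adjusted p = 1.06e-06). The 12 held-out neuron genes summed to 640 to 1066 CPM in the precursor libraries, and their part in the precursor levels of this and the next genes was not tested. A Kcnc1 UMI was found in 45.0% ± 8.04 of neurons and in 0.447% ± 0.355 of oligodendrocytes, or in 18.5% and 0.468% at 1000 UMIs per cell.

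Kcnd2 (Kv4.2), the pore of the fast transient A-type current, was shared by neurons and precursors. It stood at 149.7, 158, 252 and 189 CPM in neurons and 167, 346, 456 and 168 in precursors, which overlapped (-0.27, SE 0.29; edgeR adjusted p = 0.4803). Astrocytes had 47.9 ± 33.1 CPM and oligodendrocytes 3.35 ± 1.24. Its relative Kcnd3 (Kv4.3) stood at 22.9, 29.8, 57.7 and 46.8 CPM in neurons and 99.9, 288, 127 and 101 in precursors with no overlap, a log2 fold change of neurons of -1.46 (SE 0.48; adjusted p = 0.0075). That call was lost at 800 genes per cell (0.3078), under the 5% mitochondrial limit (0.0625), the stricter gate (0.3572), no low-count filter (0.1804), thinning (0.3412) and without library 2 (0.1229). Oligodendrocytes had no Kcnd3 UMI, so neurons were at least 18.0-fold and precursors at least 70.5-fold higher. Astrocytes held 11 Kcnd3 UMIs among 372729 of all genes, and neurons 339 among 9699856. Of the 2 tested Kv4 genes, 1 was called between neurons and astrocytes.

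Kv7 genes encode the M-current that muscarinic receptors suppress. Kcnq3 (Kv7.3), a subunit of that channel, stood at 120.1, 111, 201 and 168 CPM in neurons and 86.2, 96.7, 187 and 81.6 in oligodendrocytes. These ranges overlapped and the fitted difference was -0.04 (SE 0.15; edgeR adjusted p = 0.8326). Astrocytes were below both (36.3 CPM ± 23.6), by a log2 fold change of 1.81 (SE 0.35; adjusted p = 5.74e-07) in the contrast of neurons against astrocytes. Another tested voltage-gated gene, Kcnh8 (an ELK channel of the EAG family), stood at 9.41 ± 3.69 CPM in neurons and at 99.9, 57.6, 127 and 168 CPM in precursors, with no overlap. The neuronal log2 difference was -3.29 (SE 0.60; adjusted p = 4.74e-07). Precursors were at least 61.7-fold above oligodendrocytes.

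Among channels gated by calcium, Kcnma1 (BK, which opens on voltage and calcium) stood at 85.9, 96.7, 143 and 120.2 CPM in neurons and was higher than in oligodendrocytes by 3.74 (SE 0.34; edgeR adjusted p = 3.14e-27) and than in astrocytes by 3.14 (SE 0.52; adjusted p = 6.91e-09). Its neuronal beta subunit Kcnmb4 was not tested between broad classes, with 13.7 ± 4.88 CPM in neurons and a higher mean of 60.9 ± 43.1 in precursors, from 8 UMIs. Kcnn2 (SK2), a small-conductance channel of the afterhyperpolarisation, stood at 181, 131, 173 and 144 CPM in astrocytes against 12.8, 10.9, 16.6 and 16.6 in neurons. The log2 fold change of neurons was -3.68 (SE 0.33; adjusted p = 3.77e-28), but -1.65 (adjusted p = 0.1816) when cells needed 800 genes.

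Kcnt1 (Slack), opened by sodium, stood at 146, 91.9, 125 and 118 CPM in astrocytes and 36.4, 39.2, 72.2 and 70.5 in neurons with no overlap, and had no UMI in oligodendrocytes or precursors. Neurons were lower than astrocytes by a log2 fold change of -1.41 (SE 0.29; edgeR adjusted p = 3.79e-06). This direction reversed to 1.19 (adjusted p = 0.3664) at 800 genes per cell and did not pass with thinned cells (-0.97, adjusted p = 0.1688). Neurons were at least 25.7-fold and astrocytes at least 63.4-fold above oligodendrocytes.

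Most accessory genes tested between broad classes were higher in neurons than in oligodendrocytes and astrocytes. The sum of all 15 was 435 CPM in neurons and 630 in precursors, where it includes the Kcnip3 level given below. Kcnip proteins bind Kv4 channels and calcium, and Kcnab1 is a beta subunit of Kv1 channels. Neuronal levels were 100.3 ± 5.8 CPM for Kcnab1, 128 ± 17.7 for Kcnip4, 77.1 ± 15.7 for Kcnip2 and 52.0 ± 8.71 for Kcnip1, all higher than in oligodendrocytes and in astrocytes. The pooled ratio of neurons to oligodendrocytes was 117 for Kcnip2 (interval 21.0 to 4633, from 1 UMI) and 82.3 for Kcnip1 (14.7 to 3258, from 1 UMI), and the fitted log2 difference was 5.13 for Kcnip4 (SE 0.39) and 4.00 for Kcnab1 (SE 0.37). Astrocytes held no Kcnip1 UMI, so neurons were at least 6.63-fold higher. Kcnab1, Kcnip1 and Kcnip4 each overlap genes on the opposite strand, and the counting strand is not given in the sources used here.

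Kcnip3 (KChIP3, also known as calsenilin or DREAM) was the exception among the accessory genes tested between broad classes. It stood at 999, 288, 279 and 404 CPM in precursors, 121, 65.6, 173 and 39.3 in astrocytes and 18.0, 14.4, 15.2 and 29.3 in neurons, with no overlap between neurons and either glial class. Neurons were lower than precursors by a log2 fold change of -4.35 (SE 0.33; edgeR adjusted p = 8.17e-37) and lower than astrocytes by -2.66 (SE 0.36; adjusted p = 4.16e-13). At 800 genes per cell the latter was -1.92 with an adjusted p of 0.0548. Oligodendrocytes held 3 UMIs, and precursors were 256 times their pooled level (interval 83.3 to 1276). Precursors thus held the Kv4 pore genes Kcnd2 and Kcnd3 beside Kcnip3. The other Kv4 gene, Kcnd1, had 45 UMIs in neurons and 0 in precursors. With 116547 UMIs of all genes in precursors against 9699856 in neurons, that zero cannot show whether precursors lacked it. Oligodendrocytes held 5 UMIs of Kcnd2, none of Kcnd3 and 3 of Kcnip3.

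**Figure D3:**
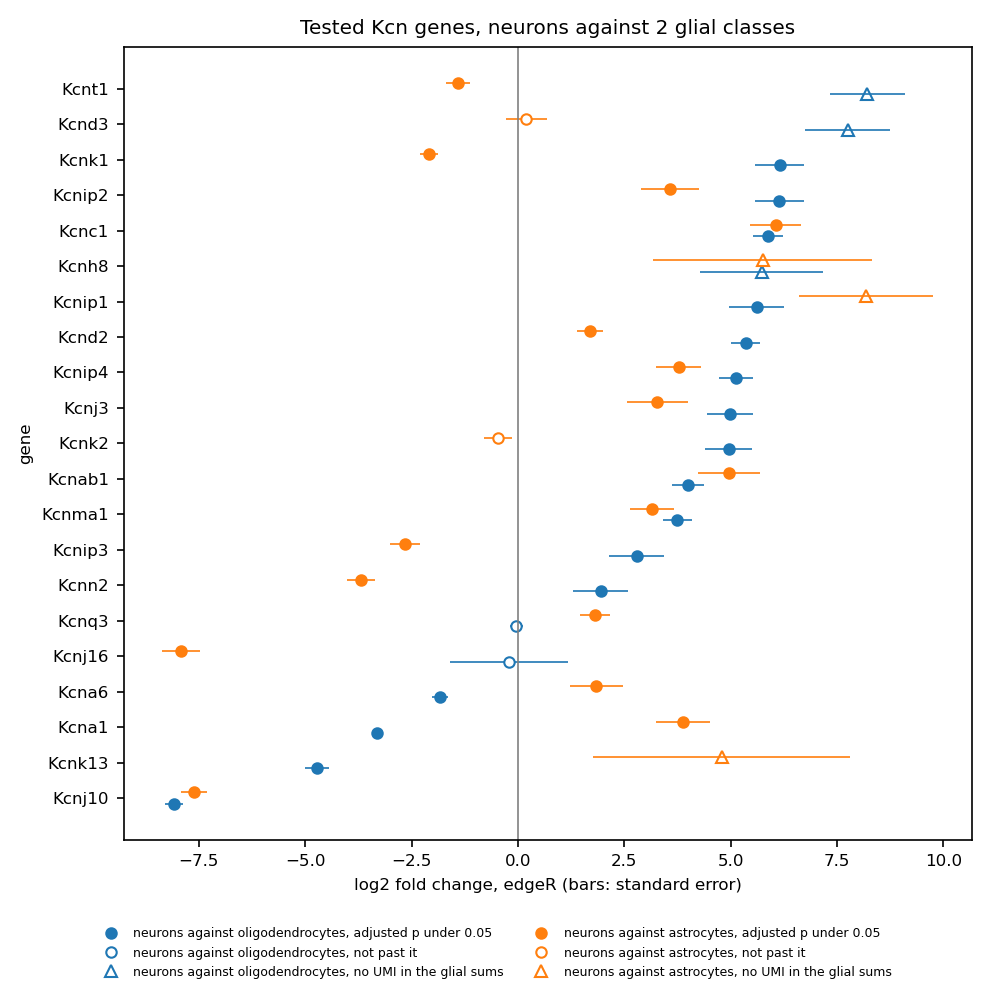
Log2 fold change with its standard error for 21 of the 23 tested Kcn genes, neurons against oligodendrocytes (blue) and against astrocytes (orange), ordered by the first. Kcnj10, Kcnk13, Kcna1 and Kcna6 lie below 0 against oligodendrocytes; triangles mark genes without a UMI in the glial sums, whose fitted value is no bound.

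The other genes of potassium handling, a list of 33 pumps, cotransporters and channel partners, were tested for 21 members. Against oligodendrocytes 12 were higher and 6 lower in neurons, where 39.6% and 33.7% of all genes were, and against astrocytes 14 were higher and 5 lower, where 35.0% and 28.6% were. Atp1b2, a beta subunit of the sodium pump, was at 849.7 CPM in astrocytes and 80.8 in neurons (log2 fold change -3.59, SE 0.15), and Fxyd1, which modulates the pump, at 495 and 3.44 CPM (-7.27, SE 0.28). Slc12a2 (NKCC1), which brings potassium and chloride in, was at 1100.2 CPM in oligodendrocytes and 38.9 in neurons (-5.27, SE 0.13), and Slc12a5 (KCC2), which carries them out, was at 241 CPM in neurons and 4.30 in oligodendrocytes (5.22, SE 0.31). The Kv1 partners Cntn2, an adhesion protein of the juxtaparanode, and Lgi3 were lower in neurons than in oligodendrocytes by -4.50 (SE 0.13) and -4.38 (SE 0.13), in the direction of Kcna1. Cntnap2, the axonal partner of Cntn2, was higher in neurons by 5.82 (SE 0.35), and the Kv4 partners Dpp6 and Dpp10 by 5.43 (SE 0.34) and 5.42 (SE 0.42).

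GABAergic neurons (2153 cells) were divided by marker UMIs into subtypes, 9 of which had sums in at least 3 libraries. Cells in these sums ran from 58 for Six3/Ifi27l2a to 260 for Ppp1r1b/Crym. Of 20 tested Kcn genes, 12 differed across the 9 subtypes in edgeR's joint F-test, where 27.2% of 4520 genes did. The joint test gave 7 of these without the library block and could test 1 Kcn gene, which passed, with cells thinned to 1000 UMIs. Ordered by F, they were Kcnab1 (F = 12.3; adjusted p = 2.58e-09), Kcnd2 (10.9), Kcna1 (9.65), Kcnip1 (7.94), Kcnip2 (7.53), Kcnip4 (6.62), Kcnc1 (6.19), Kcnq3 (3.60), Kcnh7 (3.51), Kcnc2 (3.46), Kcnk2 (3.32) and Kcnh1 (2.67; adjusted p = 0.0487). Some of these calls were lost when a library was left out (edgeR adjusted p in brackets). Kcnh7 (0.3933), Kcnk2 (0.1297) and Kcnh1 (0.2061) did not pass without library 3. Neither did Kcnq3 (0.1346), Kcnh7 (0.0719) and Kcnh1 (0.1783) without library 4, nor Kcnk2 (0.0806) and Kcnh1 (0.0735) without library 2. Kcnc2 was not tested without library 3, and Kcnip1 and Kcnh1 were not tested without library 1. The other 8 did not pass, among them Kcnj3 (adjusted p = 0.0714), Kcnk1 (0.1440), Kcnt1 (0.3980), Kcnma1 (0.7226), Kcna6 (0.7261) and Kcnf1 (0.7637). The Lhx8/Rorb (36 cells) and Prkcd (24 cells) gates were too small for the fit.

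Ppp1r1b/Crym neurons, gated on genes typical of striatal projection neurons, had the most Kcn differences against the mean of the other subtypes, with 8 of 20 called (6 higher, 2 lower) where 19.3% of all genes were (11.1% higher, 8.19% lower). Kcna1 stood there at 133, 209, 324 and 215 CPM, and the next subtype, Tshz1/Foxp2, at a mean of 99.3 with a highest library of 156, so the ranges overlapped. The log2 fold change was 1.44 (SE 0.18; edgeR adjusted p = 1.23e-09). Kcnip2 stood at 130.3, 149.6, 170.5 and 175 CPM (1.49, SE 0.20; adjusted p = 1.57e-08), overlapping Six3/Ifi27l2a neurons, whose highest library was at 142.9. Kcnab1 stood at 197, 185, 199 and 184 CPM (1.18, SE 0.15; adjusted p = 2.38e-09), overlapping Slc17a8 neurons, with a mean of 155 and a highest library of 200.9. Whether single cells carried these genes together was not tested. Smaller rises were seen for Kcnq3 (0.52, SE 0.17) and Kcnd2 (0.46, SE 0.13). Kcnc1 was lower, at 116, 162, 68.2 and 109.5 CPM against a mean of 214 in the other subtypes (-0.88, SE 0.15; adjusted p = 5.78e-06). Kcnip1 was lower by -1.07 (SE 0.40; adjusted p = 0.0491), which did not pass without library 2 (0.1736) or 3 (0.1715). Without the library block 4 Kcn genes were called in this subtype.

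Crh/Wif1 neurons had 5 of 20 Kcn genes called, 3 higher and 2 lower, with 8.78% of all genes called (5.09% higher, 3.69% lower). Kcnip4 stood at 256, 224, 216 and 277 CPM against a mean of 109 in the others (log2 fold change 1.19, SE 0.18; edgeR adjusted p = 2.18e-06), and its lowest library lay above the means of all other subtypes. Kcnab1 was at its lowest here, at 48.3, 40.7, 40.1 and 57.6 CPM (-1.08, SE 0.23; adjusted p = 6.52e-04), whereas it was at its highest in Ppp1r1b/Crym neurons. That call was lost under the 5% mitochondrial limit (-0.86, adjusted p = 0.0628). Kcnh1 (EAG1; 1.13, SE 0.35; adjusted p = 0.0241), Kcnq3 (0.55, SE 0.19; 0.0484) and Kcnj3 (-0.97, SE 0.32; 0.0428) passed by little. Kcnh1 did not pass without library 3 (0.1332) or 4 (0.0938), Kcnq3 did not without library 2 (0.0924), 3 (0.5200, at 0.26) or 4 (0.1925), and Kcnj3 did not whichever library was left out (0.0587 to 0.2276).

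Sst/Npy neurons had 3 Kcn genes higher and none lower (3.27% of all genes called, 2.54% higher and 0.730% lower). Kcnip1 stood there at 103, 94.3, 122 and 94.2 CPM against a mean of 44.6 in the others (log2 fold change 1.56, SE 0.27; edgeR adjusted p = 1.99e-05). In Slc17a8 neurons it was lower, with 2 UMIs (adjusted p = 0.0066; 0.0950 without library 4), and the pooled level of the other subtypes was 8.56 times as high (interval 2.35 to 71.1). Kcnc2 (Kv3.2) stood at 50.3, 23.6, 203 and 94.2 CPM in Sst/Npy neurons (1.40, SE 0.34; adjusted p = 0.0050), a wide spread, and its call was lost without library 4 (0.0803) and not tested without library 3. Kcnk2 stood at 76.4, 118, 149 and 94.2 CPM (0.99, SE 0.24; adjusted p = 0.0073), which did not pass without library 2 (0.1026) or 3 (0.0548).

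Kcnd2 ran across the whole range of subtypes. It stood at 310.4, 318, 506 and 311 CPM in Tshz1/Foxp2 neurons (log2 fold change 0.97, SE 0.17; edgeR adjusted p = 1.21e-04), the only Kcn gene called there (1.55% of all genes, 1.22% higher and 0.332% lower). In Zic1/Zic4 neurons it was at 100.4, 50.3, 67.5 and 127 CPM (-1.24, SE 0.24; adjusted p = 5.16e-04), with no overlap between both subtypes. Kcnq3 was also lower in Zic1/Zic4 neurons (-1.12, SE 0.32; adjusted p = 0.0401), a call lost whichever library was left out (0.0640 to 0.1763), so that 2 of 20 were called there (2.83% of all genes, 1.62% higher and 1.22% lower). Cck/Greb1 neurons (7.54% of all genes called, 4.76% higher and 2.79% lower) had Kcnd2 lower (-0.69, SE 0.17; adjusted p = 0.0026; 0.0583 without library 4) and Kcnh7 (ERG3) higher (0.83, SE 0.24; adjusted p = 0.0165; 0.41 and 0.6118 without library 3). Slc17a8 neurons (5.93%, 3.03% higher and 2.90% lower) had Kcnab1 higher (0.83, SE 0.23; adjusted p = 0.0155), which did not pass without library 1, 2 or 3, beside the lower Kcnip1. Tac2/Ebf1 neurons (4.00%, 2.74% higher and 1.26% lower), from 3 libraries, had Kcnc1 higher (0.57, SE 0.15; adjusted p = 0.0102; 0.4609 without library 1 and 0.0769 without library 4). Six3/Ifi27l2a neurons, also from 3 libraries, had 0 Kcn genes called by edgeR and 2 at an unadjusted p under 0.05, with 0.354% of all genes called (0.243% higher, 0.111% lower).

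**Figure D4:**
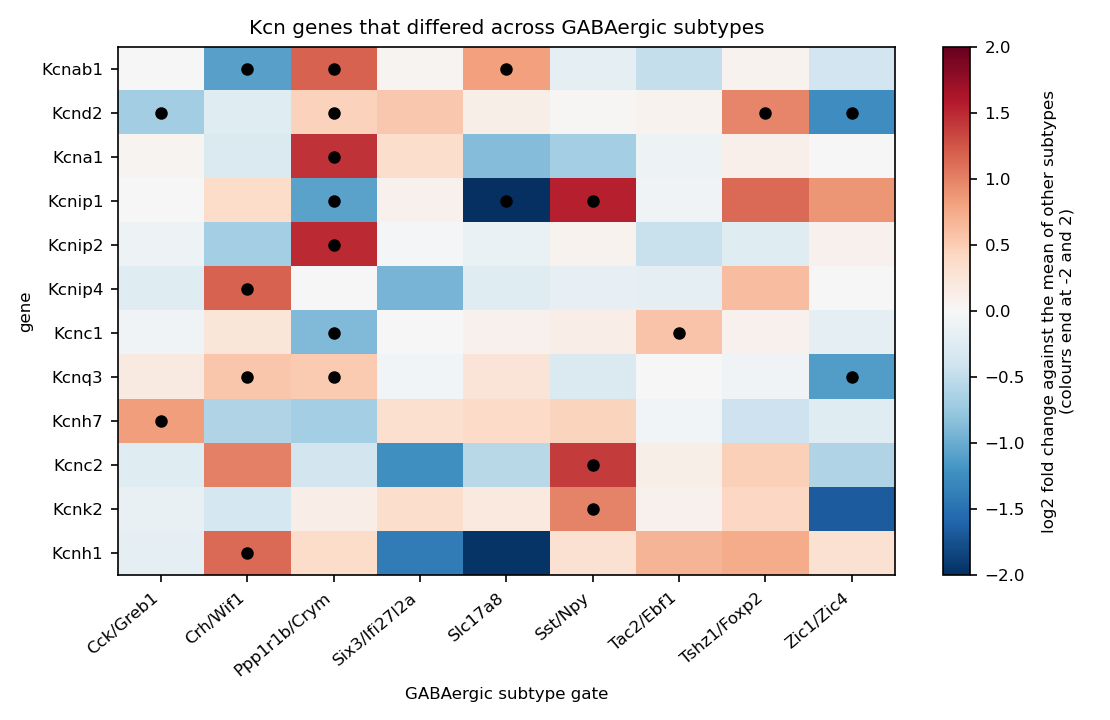
Log2 fold change of the 12 Kcn genes that differed across GABAergic subtypes, each subtype against the mean of the others, with red higher and blue lower; dots mark adjusted p under 0.05 in that contrast. Ppp1r1b/Crym neurons have 7 dots among these genes, and Kcnd2 has the dots at both ends, Tshz1/Foxp2 higher and Zic1/Zic4 lower.

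Glutamatergic neurons were few, with 77 cells in all, and library 3, with 7 of them, was not used for the sums. Kcnip1 was the only 1 of 38 tested Kcn genes called against GABAergic neurons, where 2.10% of all genes were (0.906% higher, 1.19% lower), and 5 had an unadjusted p under 0.05. It stood at 114, 105 and 91.6 CPM in libraries 1, 2 and 4 against 49.5, 53.8 and 51.0 in GABAergic neurons of those libraries (log2 fold change 1.05, SE 0.31; edgeR adjusted p = 0.0407). The call was lost with DESeq2 (0.8925), without the block (0.0685) and without library 1 (0.8426), 2 (0.0762) or 4 (0.0533).

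The study concerned neurons expressing Pnoc, the gene of the precursor of the neuropeptide nociceptin. GABAergic neurons with a Pnoc UMI (459 cells, median 5063 UMIs) were set against those without (1694 cells, median 3065), and the part of this depth gap in what follows was not tested beyond thinning. Of 45 tested Kcn genes 4 passed, 1 higher and 3 lower with Pnoc, where 2.81% of all genes passed (1.49% higher, 1.32% lower), and 14 had an unadjusted p under 0.05. DESeq2, the fit without the library block and thinned cells each gave 0 calls. For Kcnq5 the log2 fold change was -1.38 with DESeq2 (adjusted p = 0.2369) and -1.33 without the block (0.1021), and with thinned cells it was not tested.

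Kcnq5 (Kv7.5), a further M-current subunit with an opposite-strand neighbour, stood at 13.1, 14.3, 5.73 and 9.18 CPM with Pnoc and 27.9, 24.5, 40.6 and 27.9 without, and the groups did not overlap (log2 fold change -1.29, SE 0.28; edgeR adjusted p = 0.0086; 0.0524 without library 4). Kcnab1 stood at 89.1, 65.5, 97.4 and 50.5 CPM with Pnoc and 122, 112, 112 and 104 without, also with no overlap (-0.54, SE 0.13; adjusted p = 0.0194). It did not pass without library 1 (0.0579), 2 (0.1130) or 4 (0.1554). Kcnd2 stood at 132, 131, 175 and 140.0 CPM with Pnoc and 156, 168, 266 and 200.5 without. These ranges overlapped, but it was lower in 4 of 4 libraries (-0.38, SE 0.10; adjusted p = 0.0350), not passing without library 2 (0.0877), 3 (0.1337) or 4 (0.1908). Kcnh7 stood at 51.1, 65.5, 132 and 105.6 CPM with Pnoc and 43.6, 51.2, 84.9 and 62.4 without, again overlapping and higher in 4 of 4 (0.51, SE 0.14; adjusted p = 0.0487), not passing whichever library was left out (0.0579 to 0.3108).

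**Figure D5:**
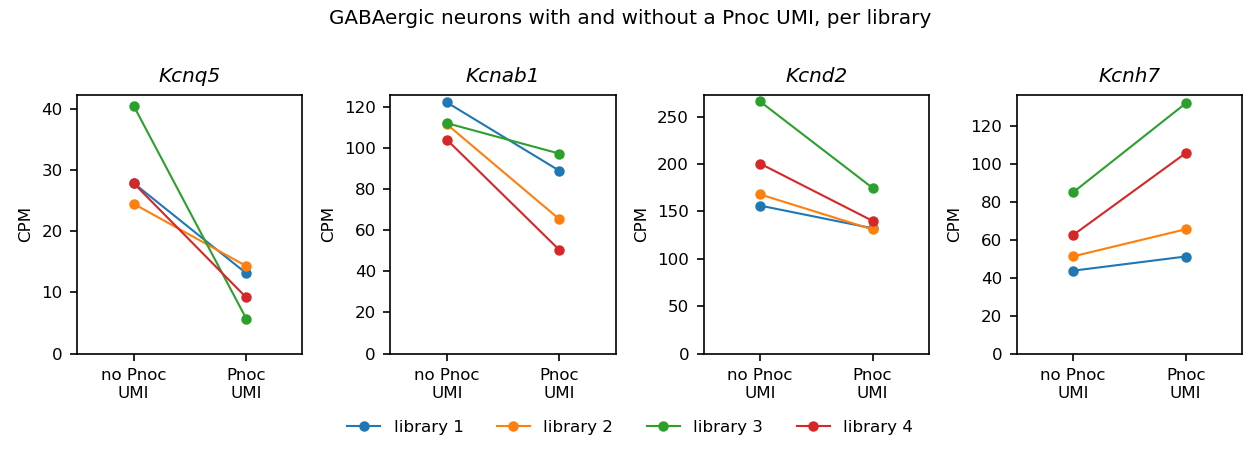
Level in CPM of the 4 Kcn genes called between GABAergic neurons without and with a Pnoc UMI; each line joins the sums of 1 library. Kcnq5, Kcnab1 and Kcnd2 fall and Kcnh7 rises in all 4 libraries.

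Mature oligodendrocytes were split into those marked by Klk6 and Anln (179 cells) and those marked by Opalin and Il33 (470 cells). None of 5 tested Kcn genes passed with edgeR or DESeq2, where 12.3% of all genes passed with edgeR (6.26% higher and 6.05% lower in the first kind), and 1 had an unadjusted p under 0.05. That gene, Kcnk13, stood at 121, 98.5, 159 and 112 CPM in the first kind and at 57.4, 94.3, 90.6 and 55.4 CPM in the second, with no overlap (log2 fold change 0.74, SE 0.32; adjusted p = 0.1425). Kcna1 was at 758 ± 124 and 656 ± 140.2 CPM, which overlapped (0.20, SE 0.14; adjusted p = 0.4534).

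Most of the 62 genes outside the tests between broad classes had the larger part of their UMIs in neurons, which held most UMIs. Kcnh7 (601 neuronal UMIs), Kcnc2 (393), Kcnh1 (370), Kcnf1 (362), Kcnab2 (303), Kcnt2 (253), Kcnq5 (235) and Kcns2 (234) each had at most 4 UMIs in any glial class. Kcnh2 (ERG1) stood at 16.5 CPM ± 7.75 in neurons, with 149 of its 153 UMIs there, 2 in astrocytes and 2 in precursors. Precursors held only 116547 UMIs of all genes, so these counts did not set neurons apart from precursors. By counts alone, all 11 Kcnk5 (TASK-2) UMIs were in oligodendrocytes and all 10 Kcne1l UMIs in astrocytes. Kcnj2 (Kir2.1) had 39 of its 54 UMIs in neurons and 14 in oligodendrocytes, and Kcnu1 59 of 78 in neurons and 15 in oligodendrocytes. Neurons held 9699856 UMIs of all genes and oligodendrocytes 1541602. The pooled level of both genes was thus higher in oligodendrocytes, which was not tested. Kcnk3 (TASK-1) had 12 UMIs in precursors, at 99.9, 0, 177 and 67.4 CPM, and 14.1 ± 6.38 CPM in neurons. Kcnq1, listed in the tables, had no UMI in kept cells. Kcnq1ot1, an RNA that is no channel, is listed under capital-letter names that the selection by symbol does not take. These sparse genes were singled out after their counts were seen.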

How the data were processed

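The deposited values are UMI counts per gene and barcode. Per the submitters' processing notes, bcl2fastq 2.18.0.12, STAR 2.4.2a and Picard 2.2.4 were used with mm10 (GRCm38); annotation and counting strand are not given in the sources used here. From the authors' counts, barcodes with at least 400 genes and at most 10% mitochondrial UMIs were kept, and doublets were removed with Scrublet in scanpy 1.11.5. Classes needed at least 4 UMIs from at least 2 markers; the gate thresholds were set after the marker counts were seen. UMIs were summed per class and library where at least 10 cells were present. Sums were tested with edgeR 4.0.16 (TMM, filterByExpr, quasi-likelihood F-test, library as a block, Benjamini-Hochberg over all genes tested) in R 4.3.3; DESeq2 1.42.0 was an alternative. The block was used because the class sums of a library come from the same pool of mice: deviations in neurons and oligodendrocytes correlated at 0.364 to 0.517 within a library and at most 0.297 between libraries. The scripts were checked on simulated counts. CPM and shares of cells are means over libraries with their SD. Named genes were the called Kcn genes of each contrast, up to a preset number, plus a preset list. The members, lists and comparisons were chosen with earlier results of these data known. Promoters come from RefSeq on GRCm38.p6, matched by symbol. Some tested genes enter the counts and medians but are not reported here by name or value.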

Additional observations from a re-analysis of the deposited data

Results flagged for a closer look

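In 4 of 47 levels searched, 1 library stood apart from the other 3 by Dixon's criterion; chance at 1 in 20 would give 2.35. Kcnip1 in neurons was lowest in library 3, at 39.105 CPM, where the others lay between 55.1 and 58.2. Kcnj3 in neurons was lowest in library 2, at 53.583 CPM, with the others between 62.3 and 63.6. Kcnq3 in oligodendrocytes was highest in library 3, at 186.679 CPM, with the others between 81.6 and 96.7. Kcnq5 in neurons was highest in library 3, at 33.803 CPM, with the others between 21.9 and 23.2.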

How the results depend on the processing

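Of the alternatives for 101 results on single genes, 988 kept the direction and side of the threshold, 139 kept the direction but no longer passed, and 63 gave no value. The exception was Kcnt1 in neurons against astrocytes, at 1.19 (edgeR adjusted p = 0.3664) with 800 genes per cell; the cause was not tested. Without the low-count filter more Kcn genes were tested, and calls rose to 52 for neurons against oligodendrocytes, 39 against astrocytes, 25 against precursors and 25 across subtypes. Thinning left 5 calls for neurons against precursors, 10 for precursors against oligodendrocytes and 1 across subtypes, and a 5% mitochondrial limit left 10 for precursors against oligodendrocytes. Without the library block, 7 genes differed across subtypes, 0 between glutamatergic and GABAergic neurons and 0 with Pnoc. For single subtypes, it took the calls from 8 to 4 in Ppp1r1b/Crym, 5 to 2 in Crh/Wif1, 2 to 1 in Cck/Greb1 and in Zic1/Zic4, and 1 to 0 in Tac2/Ebf1 neurons. It moved no other count of calls by more than 1.5 times, and 19 of the 101 single-gene results no longer passed. The glutamatergic call also went to 0 under DESeq2, no filter, thinning and the 5% limit, and the Pnoc calls to 0 under DESeq2 and thinning; the cause was not tested. With each library left out in turn, calls ranged from 0 to 1 for glutamatergic neurons, 0 to 2 for Pnoc, 9 to 10 across subtypes, 21 to 22 for neurons against oligodendrocytes, 19 to 20 against astrocytes, 10 to 14 against precursors, 12 to 14 for astrocytes against oligodendrocytes and 13 to 16 for precursors against oligodendrocytes. Precursor sums of 17 to 34 cells limit what could be detected there.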
